A study of Mus musculus with 8 samples.

Results

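The unstimulated cultures of the study were 4 RNA libraries from mouse marrow-derived cells that had received only PBS, the vehicle, and the description below concerns what those cells expressed without added ligand. A gene was kept as expressed where each of vehicle replicates 1 to 3 listed at least 1 FPKM (fragments per kilobase of exon, scaled to the library's mapped fragments, a level corrected for gene length and depth). This rule kept 10524 of 55450 listed genes, or 19% of all genes and 43.9% of the protein-coding ones (9630 of 21951). The 43.9% is the share to set beside each list's count of expressed members below. The study grew dendritic cells out of marrow of mice with a dry eye disease that the labels abbreviate as SS, and compared PBS with recombinant S100A8/A9; the 4 treated libraries, of 8 in all, were not used here. The labels give total RNA as the material, oligo(dT) selection of mRNA and Illumina sequencing. They do not give strain, age, how the disease was induced, the growth factors of the culture or the length of exposure to PBS. Nor do they say whether the 4 libraries came from separate animals or cultures, so each SD measures the spread between these libraries, which may be technical.

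Dendritic cells take up antigen, cut it in endosomes, show it on MHC class II and carry it to T cells; macrophages are close relatives that specialise in clearing particles and dying cells. Cultures of marrow with the growth factor GM-CSF are known to hold both kinds of cell beside immature granulocytes. S100A8 and S100A9 are small calcium-binding proteins that neutrophils and monocytes store in large amounts, and once released they act as alarm signals through TLR4 and other surface proteins. The sample titles abbreviate the cells as BMDMs, whereas the cell type label and protocol call them dendritic cells, so both sets of markers were examined.

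Replicates 1 to 3 share 1 table and are given as mean ± SD (n = 3) in FPKM. Replicate 4 came in a separately made table and its genes are given only by their rank among the 24388 genes listed in both tables, rank 1 being the highest. The summed FPKM was between 282921 and 299751 in replicates 1 to 3 and was 344166 in replicate 4. The low values of replicate 4 were whole multiples of what 1 read is worth in 98.5% of cases (within 0.01 read, up to 20 reads), which puts its depth at about 31900000 reads. In replicates 1 to 3 only 5.76% to 5.98% came out whole, so their depth is unknown. Mitochondrially encoded genes held 9.99% ± 0.814 of the summed FPKM and cytosolic ribosomal protein genes 5.52% ± 0.347, against 9.07% and 5.34% in replicate 4. The libraries of replicates 1 to 3 lay closer to each other (Spearman's rho across genes 0.941 to 0.948, genes not being independent replicates) than to replicate 4 (0.892 to 0.897).

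Most expressed genes were modest in level and repeated well. The median expressed gene stood at 7.46 FPKM (interquartile range 3.54 to 15.8), 3724 genes (35.4% of those expressed) reached 10 FPKM in all 3 libraries, 296 reached 100 and 24 reached 1000. The median coefficient of variation over the 3 libraries was 12.0%. At the margin of the rule, Letm2 (1.74, 1.00 and 1.60 FPKM) was just inside, while Rims3 (2.27, 0.999 and 1.02) was just outside. Of the 10524, 91.5% were protein-coding, 386 were processed pseudogenes and 89 were lincRNAs.

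A small set of secretory, lysosomal and iron-storage transcripts dominated the cultures. Leaving out mitochondrial, ribosomal protein and predicted genes, the 30 highest genes together held between 18.3% and 22.1% of the summed FPKM, and 26 of the 30 were also among the 100 highest in replicate 4. Chil3 (Ym1), a secreted chitinase-like protein of monocytes and alternatively activated macrophages, led them at 17342, 11604 and 9235 FPKM in replicates 1, 2 and 3 (12727 ± 4169), and ranked 2 in replicate 4. It lies at chr3:106147554-106167564 (mm10, minus strand). An rRNA-type clone gene outside that selection, CT010467.1, was above Chil3 in replicates 2 and 3 and below it in replicate 1, at 11113, 12616 and 14733 FPKM, with no value for replicate 4 here. Lyz2, the lysozyme of macrophages and other myeloid cells, stood at 5013, 3789 and 3128 FPKM and was the highest gene of replicate 4. Lyz1, named here after its values were seen, is a close copy of it and stood at 43.1, 87.0 and 32.5 FPKM, so the split of reads between them is uncertain.

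The iron-storage chains Fth1 and Ftl1 averaged 5134 and 4636 FPKM. Lysosomal genes were close behind: Psap, which encodes the saposin activators of lipid breakdown, averaged 4707 FPKM, the protease genes Ctsd, Ctss and Ctsb 1860, 733 and 678, and the protease inhibitor Cst3 906. Cd74, the invariant chain that guides MHC class II, averaged 3024 FPKM, and B2m, the light chain of MHC class I, was the steadier of the pair at 2619 ± 75.6. Secreted factors among the 30 were Mmp12, the macrophage elastase (1105), and the chemokines Ccl6 (989), Ccl5 (793 ± 347) and Ccl22 (559 ± 127). Ccl5 was 541, 648 and 1188 FPKM, so that replicate 3 was well above the other two, unlike Chil3 and Lyz2, which were highest in replicate 1. The other places included cytoskeletal and housekeeping genes such as Eef1a1 (2104), Actb (1809), Tmsb4x (1180), Vim (794) and Aldoa (555), with the galectin gene Lgals3 (1160) and the glycoprotein gene Gpnmb (518).

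**Figure D1:**
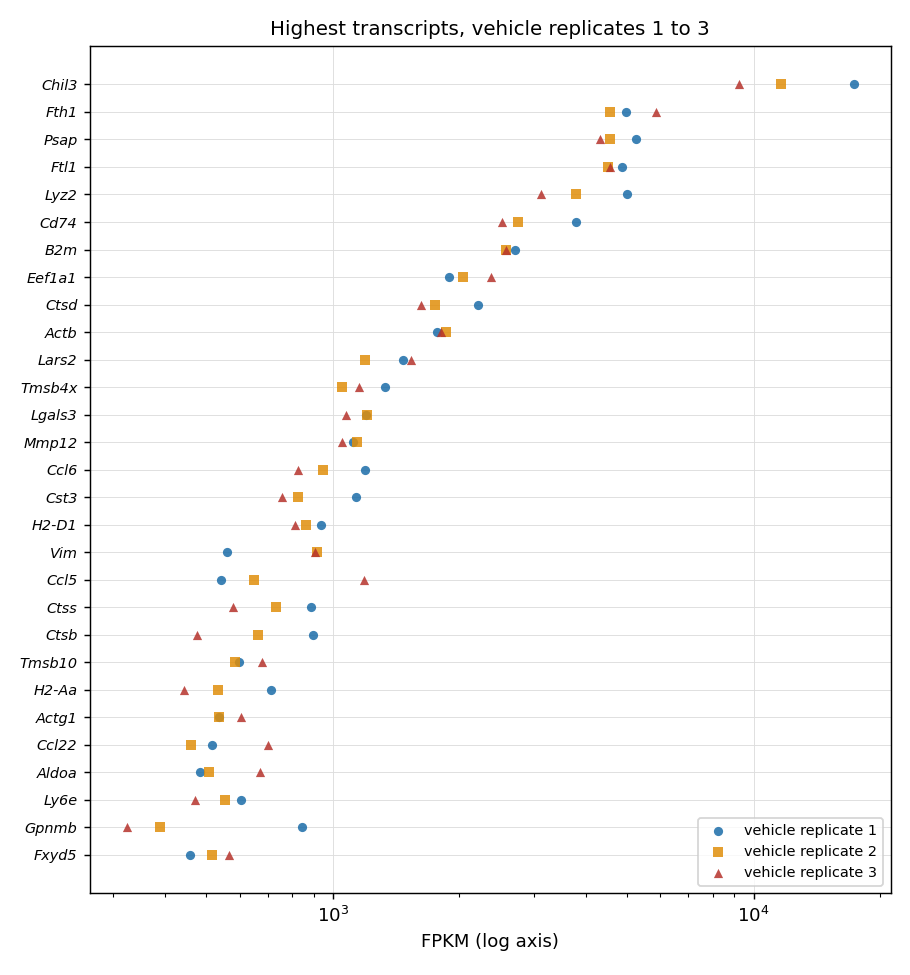
FPKM (log axis) of genes among the 30 highest in vehicle replicates 1, 2 and 3, 1 mark per library. Chil3 stands apart at 9235 to 17342 FPKM, and most other genes span a narrow range.

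Markers of macrophages were broad and abundant in these cultures. Of 22 macrophage markers, 18 were expressed (43.9% of all protein-coding genes were), and the list's median was 58.6, 30.7 and 16.8 FPKM in replicates 1, 2 and 3 (35.4 ± 21.3). Beyond Lyz2, the highest were Gpnmb (843, 389 and 323), the lysosomal Cd68 (465, 372 and 305), the co-receptor Cd14 (94.1, 194 and 278), the CSF-1 receptor Csf1r (186, 147 and 109) and the lipid carrier Apoe (263, 106 and 27.8). Adgre1, which encodes F4/80 and is outside the 6 leading members, averaged 34.9 FPKM. Markers of resident tissue macrophages were uneven: Siglec1 was 61.8, 36.7 and 21.5 FPKM and Cd5l 1.10, 1.58 and 2.01, while Timd4 was listed at 0 in all 3 libraries, and Marco, Vsig4 and Folr2 stayed under 1 FPKM.

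The macrophage markers also separated the libraries. Of the 18 expressed members, 16 were highest in replicate 1, where 32.3% of all expressed genes were highest, and 9 spanned more than 1 log2 unit of FPKM + 1 between the lowest and highest library, where 2.48% of expressed genes did (261 of 10524). Apoe differed 9.46-fold between replicates 1 and 3. The mannose receptor Mrc1 was 74.97, 33.1 and 12.1 FPKM, and the complement subunits C1qb (37.0, 11.3 and 6.11) and C1qc (55.4, 15.9 and 9.24) differed in the same order of libraries. Cd14 went the other way, with its highest value in replicate 3. In these bulk libraries, fewer cells of a type and less RNA per cell cannot be told apart.

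Dendritic markers were uneven. Genes of the mature state and of class II presentation were high as lists, while lineage genes were mixed. Flt3, Zbtb46, Xcr1 and Clec9a lay under the median expressed gene, whereas Itgax, Irf8, Irf4 and Batf3 lay above it. Of 7 pan-dendritic markers 3 were expressed, a share (42.9%) close to the 43.9% of all protein-coding genes. They were Itgax (66.9, 47.8 and 47.6 FPKM), Haao (7.19 ± 1.02) and Zbtb46 (2.13, 2.41 and 3.33). Itgax encodes CD11c, an integrin shared with macrophages, and Zbtb46 is a transcription factor of conventional dendritic cells. Flt3, the growth factor receptor of dendritic cell precursors, was 0.756, 0.486 and 0.921 FPKM and did not meet the rule. The pan-dendritic median was 0.774 ± 0.250 FPKM, against 35.4 ± 21.3 for macrophage markers, and the ranges of the 3 libraries did not overlap. These medians do not measure the share of either cell type, since bulk libraries do not show which cells made the transcripts of either list.

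Markers of the conventional and plasmacytoid subsets were partly present, with expressed shares on both sides of the 43.9% of protein-coding genes. These shares were 50% for type 1, 62.5% for type 2 and 33.3% for plasmacytoid markers. For the cross-presenting type 1 subset 5 of 10 markers were expressed, led by the transcription factor gene Irf8 (35.2 ± 4.997), Wdfy4, needed for cross-presentation (17.6 ± 1.36), and the transcription factor gene Batf3 (9.41 ± 2.64), ahead of Cadm1 and Tlr3, whereas the surface markers Xcr1 (0 to 0.0782 FPKM) and Clec9a (0.109 to 0.289), named after their values were seen, were near 0. For the type 2 subset 5 of 8 were expressed: the inhibitory receptor Sirpa (163 ± 19.5), the lectin Mgl2 (99.5 ± 20.2) and Irf4 (21.9 ± 5.51) led, Clec10a and Clec12a were lower, and Cd209a was listed at 0 in all 3 libraries. Sirpa and Mgl2 are made by macrophages too. Of 9 plasmacytoid markers 3 were expressed, namely Tcf4 (8.14 ± 1.23), Runx2 and Cox6a2, and Siglech was listed at 0.

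Marker genes listed for mature, migrating dendritic cells were high as a list without added ligand. Of 15 such markers 14 were expressed, with a median of 25.6 ± 2.82 FPKM. The chemokine gene Ccl22 was 515, 461 and 702 FPKM, and Ccr7, the receptor that guides dendritic cells to lymph nodes, was 160, 141 and 207. Both ranked high in replicate 4 as well, at 35 and 116. Cacnb3 (95.5 ± 19.8), Ccl17 (89.8 ± 32.8), Fscn1, the actin bundler of dendrites (61.2 ± 10.1), and Marcksl1 (57.7 ± 8.66) followed. Ccl17 is also a member of the IL-4 response list, and bulk libraries do not show which cells made these transcripts. Of the 14, 11 were highest in replicate 3, where 39.8% of expressed genes were highest. Of the same 14, 1, Il4i1, spanned more than 1 log2 unit, beside 2.48% of expressed genes. Not every expressed member was high. Cd80 (5.60, 3.23 and 6.98 FPKM) and Il4i1 (7.56, 2.87 and 3.13), outside the 6 leading members, averaged less than the median expressed gene (7.46). Il12b, the shared subunit of IL-12 and IL-23, was the member that was not expressed, at 0.110 to 0.562 FPKM.

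The MHC class II list had the highest median of the 30 lists. Of 11 genes 10 were expressed, at a median of 81.5, 73.9 and 60.7 FPKM (72.0 ± 10.6). The class II chains H2-Aa, H2-Ab1 and H2-Eb1 averaged 563, 469 and 317 FPKM, the peptide-loading chain H2-DMa 72.0 ± 10.6, and the master regulator Ciita, outside the 6 leading members, 9.86 ± 4.57. As for macrophage markers, most (8 of 10) were highest in replicate 1, beside 32.3% of all expressed genes. Class II genes are shared by dendritic cells and activated macrophages, and copies within the H2 family are alike enough for reads to be split uncertainly.

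**Figure D2:**
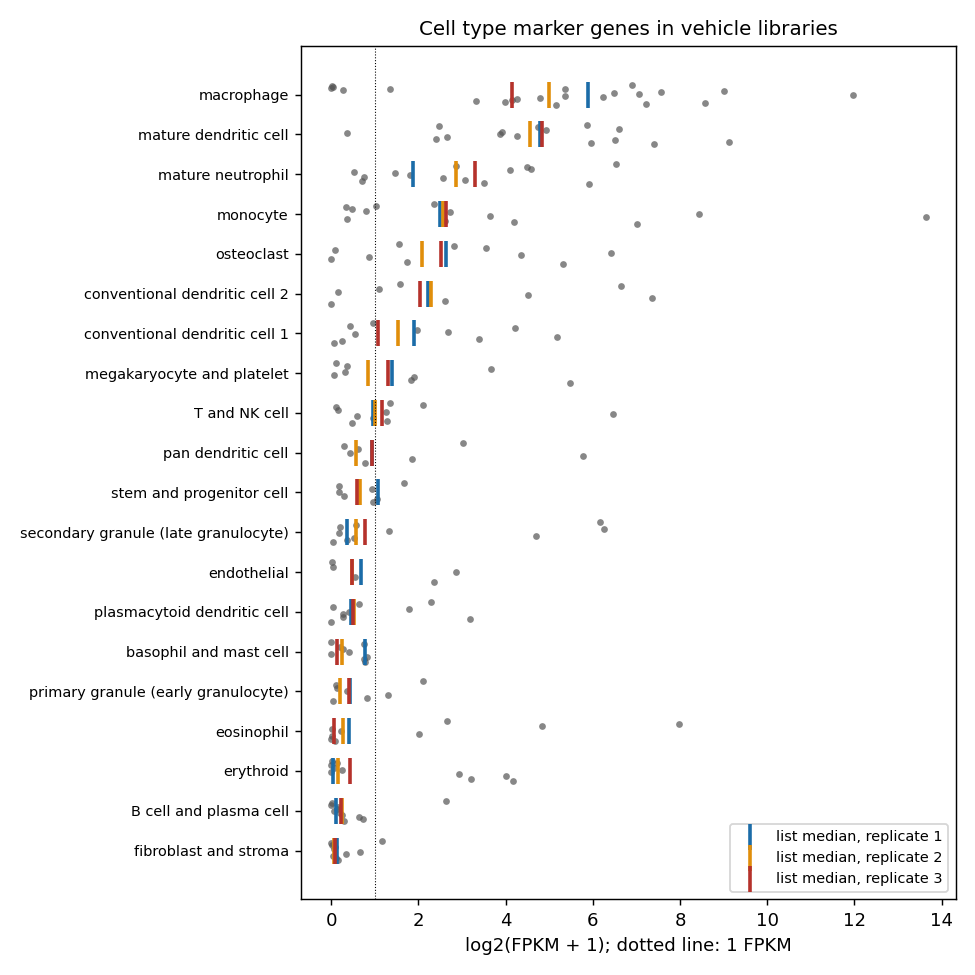
Each grey point is a marker gene's mean log2(FPKM + 1) over vehicle replicates 1 to 3, and the coloured bars are the list medians of each library. Macrophage medians (16.8 to 58.6 FPKM) and mature dendritic cell medians (22.4 to 27.6 FPKM) lead the lists, and pan-dendritic medians (0.486 to 0.921 FPKM) sit at or under the dotted line at 1 FPKM.

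Monocyte markers were split between very high and low genes. Of 13, 8 were expressed at a list median of 4.96 ± 0.276 FPKM. Chil3 and the matrix gene Fn1 (343 ± 43.2) were at the top, and Ly6c2, a surface marker of inflammatory monocytes, was 62.2, 144 and 178 FPKM. Ccr2, the receptor for monocyte entry into tissue, averaged 17.4 ± 3.78.

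Granule genes of early granulocytes were nearly silent, while genes of mature neutrophils were present at levels that set the libraries apart. Of 7 markers listed for the primary granule stage only Cebpe was expressed (3.32 ± 0.415), which encodes a granulocyte transcription factor and not a granule protein. The protease Prtn3 was 0.843, 1.95 and 1.58 FPKM, Mpo stayed under 1, and Elane was at most 0.101. Of 10 secondary granule genes 4 were expressed. The collagenase Mmp8 (98.5, 59.8 and 68.5) and the chitinase-like Chil1 (51.5, 64.6 and 95.02) were high and Cd177 was low (1.496 ± 0.405), but Ltf, Camp and Ngp, which define this stage and of which Ltf and Camp are outside the 6 leading members, stayed under 1 FPKM. Lcn2, a siderophore-binding protein also made by activated macrophages, was 5.39, 22.5 and 47.3.

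Of 14 mature neutrophil markers 10 were expressed (beside 43.9% of protein-coding genes), with medians of 2.69, 6.23 and 8.81 FPKM (5.91 ± 3.08). Of these 10, 9 were highest in replicate 3 and 6 spanned more than 1 log2 unit, beside 39.8% and 2.48% of all expressed genes. The lectin Clec4d (82.5, 84.1 and 110 FPKM) and the formyl peptide receptor gene Fpr2 (11.6, 22.3 and 35.3) were high and are shared with macrophages. Csf3r, the G-CSF receptor of neutrophils and outside the 6 leading members, was highest in replicate 1 instead, at 11.6, 6.19 and 4.59. Cxcr2, the neutrophil chemokine receptor, and Ly6g, the antigen used to stain mouse neutrophils, both stayed under 1 FPKM in all 3 libraries.

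The genes for the ligand itself were expressed by the unstimulated cultures and were among the most unequal between libraries. S100a8 was 9.72, 44.1 and 125 FPKM in replicates 1, 2 and 3 (59.7 ± 59.4), a 12.9-fold span, and its ranks among genes listed in both tables were 4149, 778 and 248, with 477 in replicate 4. S100a9 was 1.36, 8.02 and 21.6 FPKM (10.3 ± 10.3), a 15.9-fold span, at ranks 10373, 4943 and 1864, with 9895 in replicate 4. Replicate 1 was the lowest and replicate 3 the highest for both. S100a9 ranked below S100a8 in every library. In replicate 4 S100a8 ranked near the top and S100a9 near the middle, close to the place of S100a9 in replicate 1.

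Windows of 300 bases around the starts of S100a8 and S100a9, and of Chil3, C1qb and C1qc as the leading gene and a pair with the opposite order of libraries, are shown because these genes separate the libraries or dominate them. Each runs from 250 bases before to 50 bases after the RefSeq start (GRCm38.p6), on the gene's own strand; 5 of 6 genes looked up had a window. Capitals mark the letters of known sites, each searched on both strands. GAGGAAGT holds the letters of a site for PU.1, the master regulator of myeloid cells, and ACTTCCTC is its reverse complement. TTGCNNAA holds those of a site for the C/EBP factors of granulocytes and macrophages, and TATAAA those of the TATA box. The regions are chr3:90668821-90669120 (plus strand) for S100a8, chr3:90695672-90695971 (minus) for S100a9, chr3:106167515-106167814 (minus) for Chil3, chr4:136886151-136886450 (minus) for C1qb and chr4:136892865-136893164 (minus) for C1qc.
S100a8: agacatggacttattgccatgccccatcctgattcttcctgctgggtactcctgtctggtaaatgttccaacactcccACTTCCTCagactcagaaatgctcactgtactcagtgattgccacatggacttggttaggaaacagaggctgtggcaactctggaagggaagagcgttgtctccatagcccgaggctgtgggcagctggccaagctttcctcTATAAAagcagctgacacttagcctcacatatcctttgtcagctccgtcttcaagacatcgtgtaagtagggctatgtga
S100a9: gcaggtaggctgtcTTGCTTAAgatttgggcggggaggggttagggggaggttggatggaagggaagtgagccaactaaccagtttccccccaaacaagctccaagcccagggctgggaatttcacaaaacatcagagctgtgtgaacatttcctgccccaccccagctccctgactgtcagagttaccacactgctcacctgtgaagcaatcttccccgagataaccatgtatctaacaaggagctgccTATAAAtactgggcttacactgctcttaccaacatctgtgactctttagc
Chil3: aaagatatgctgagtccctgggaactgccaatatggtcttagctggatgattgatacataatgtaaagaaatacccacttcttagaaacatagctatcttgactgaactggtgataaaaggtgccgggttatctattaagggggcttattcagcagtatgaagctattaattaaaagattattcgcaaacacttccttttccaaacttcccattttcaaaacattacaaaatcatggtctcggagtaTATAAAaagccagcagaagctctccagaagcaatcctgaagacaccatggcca
C1qb: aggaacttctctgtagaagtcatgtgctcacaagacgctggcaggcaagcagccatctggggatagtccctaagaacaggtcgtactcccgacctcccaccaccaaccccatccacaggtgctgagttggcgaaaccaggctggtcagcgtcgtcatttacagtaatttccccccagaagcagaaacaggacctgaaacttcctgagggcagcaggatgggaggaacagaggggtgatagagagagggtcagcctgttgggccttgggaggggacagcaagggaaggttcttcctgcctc
C1qc: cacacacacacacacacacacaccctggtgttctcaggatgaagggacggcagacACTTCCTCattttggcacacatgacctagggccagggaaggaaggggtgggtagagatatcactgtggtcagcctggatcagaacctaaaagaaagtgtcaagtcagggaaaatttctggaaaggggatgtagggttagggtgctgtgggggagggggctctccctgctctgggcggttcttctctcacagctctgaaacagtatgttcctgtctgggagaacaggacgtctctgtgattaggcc
The PU.1 letters occur on the reverse strand of the S100a8 window at base 79 and of the C1qc window at base 56, counted from the window's 5′ end; 3.2% of the 32851 promoter windows hold them. The C/EBP letters occur in the S100a9 window at base 15 (10.8% of windows hold them). TATAAA occurs in the S100a8, S100a9 and Chil3 windows, at bases 221, 251 and 248 (13.6% of windows). These are positions -30, 1 and -3 from the RefSeq start, so the distance differs between genes. Whether any of them acts as a TATA box was not tested. No searched letters occur in the C1qb window. These matches describe the sequence and say nothing of binding.

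Other S100 genes were steadier than the ligand pair. Of 16 family members 8 were expressed. S100a11 led at 352 ± 75.4 FPKM, followed by S100a10, the annexin A2 partner (180 ± 39.5), S100a6 (97.3 ± 22.5), S100a4 (60.5 ± 6.03) and S100a1 (48.3 ± 5.17). Of the other genes, S100a5, S100a14, S100a16, S100g and S100z were listed at 0 in replicates 1 to 3. S100a4 ranked 495, 588 and 593 in replicates 1 to 3 but 11383 in replicate 4, the second largest difference of rank among expressed list members.

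Receptors named for S100A8/A9 were present at very different levels. Of 9, 7 were expressed, with a list median of 17.5, 23.4 and 20.1 FPKM (20.3 ± 2.95). None of the 7 spanned more than 1 log2 unit, which is unremarkable beside the 2.48% of all expressed genes that did. In order of level, the scavenger receptor Cd36 was 217, 202 and 183 FPKM, Bsg (basigin, CD147) was 123, 99.6 and 121, and its relative Nptn (neuroplastin) was 49.1, 49.1 and 49.0. Cd33, a siglec, was 22.6, 32.4 and 39.4, and Tlr4, the pattern receptor that also senses bacterial lipopolysaccharide, was 17.5, 23.4 and 20.1.

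Further down, the adhesion molecule Alcam was 13.4, 21.4 and 16.6 FPKM and the activation antigen Cd69 1.74, 2.90 and 4.17. Ager, which encodes RAGE, the receptor for glycated proteins, was 0.871, 0.961 and 1.54 FPKM and so missed the rule, and Mcam (CD146) was 0.129 to 0.212. The ranges of Cd36, Bsg and Nptn did not overlap each other or those below, whereas Cd33 overlapped Tlr4 and Tlr4 overlapped Alcam. In replicate 4 the order by rank was Cd36 (149), Bsg (276), Cd33 (505), Tlr4 (1189), Nptn (1440), Alcam (2263) and Cd69 (9632), so Nptn lay below Cd33 and Tlr4 there. Tlr4 lies at chr4:66827584-66930284 (plus strand).

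The rest of the TLR4 pathway was in place. Of 22 genes 21 were expressed at a median of 12.2 ± 0.869 FPKM, the lipopolysaccharide-binding serum protein gene Lbp being the one that was not. Cd14, which hands bacterial lipopolysaccharide to the receptor, was the highest and the least even (94.1, 194 and 278 FPKM). Ly96 (MD-2), the co-receptor outside the 6 leading members, averaged 16.3 ± 2.03. The feedback inhibitor Nfkbia (55.3 ± 4.09), the kinase Irak1 (32.3 ± 2.97) and the NF-kB subunits Rela (28.9 ± 5.88) and Nfkb1 (28.8 ± 1.10) followed. Of the 21, 15 were highest in replicate 3, beside 39.8% of all expressed genes. Cd14 was the 1 that spanned more than 1 log2 unit, beside 2.48% of all expressed genes.

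**Figure D3:**
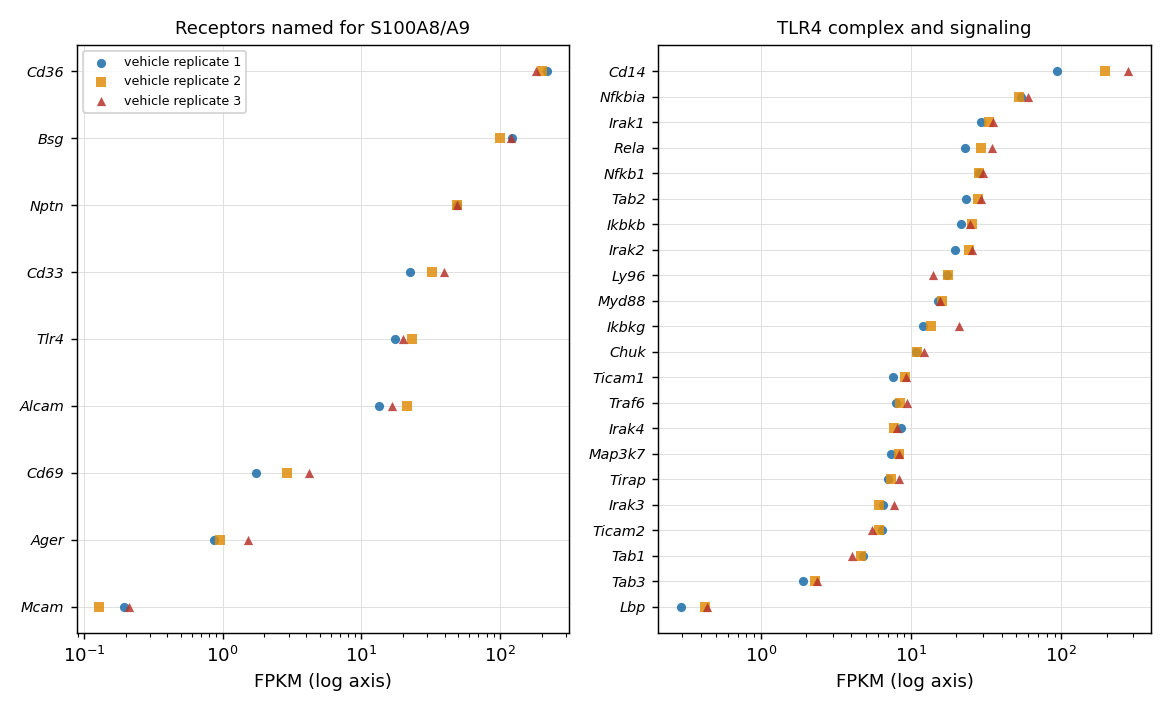
FPKM (log axis) of the 9 genes named as S100A8/A9 receptors (left) and of genes of the TLR4 complex and signaling (right) in vehicle replicates 1, 2 and 3. Cd36 and Bsg lie near or above 100 FPKM in each library, and Ager and Mcam lie near or under 1 FPKM.

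Receptors for growth factors and cytokines, interferon and interleukin receptors among them, were high as a list. Of 20 such genes 18 were expressed, at a median of 21.1 ± 0.788 FPKM. The shared beta chain of the GM-CSF, IL-3 and IL-5 receptors, Csf2rb, led at 323, 311 and 361 FPKM, ahead of the alpha chain of the GM-CSF receptor Csf2ra (189 ± 12.9) and Csf2rb2 (159 ± 1.23), a close copy of Csf2rb whose reads may be split with it. Csf1r (148 ± 38.5) and the interferon receptors Ifngr1 (47.2 ± 3.38) and Ifnar2 (39.3 ± 2.75) came next, and Kit and Flt3 did not meet the rule. Of 24 myeloid transcription factor genes, 22 were expressed, and none spanned more than 1 log2 unit, beside 2.48% of all expressed genes. Id2 (113 ± 10.8), Spi1, which encodes PU.1 (105 ± 7.37), Zeb2 (88.1 ± 10.1) and Bhlhe40 (85.01 ± 11.8) were among the highest.

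Genes known to respond to IL-4 were expressed in 11 of 12 cases. Below Chil3, Arg1, the arginine-degrading enzyme, was 302, 186 and 187 FPKM, and Mgl2 99.5 ± 20.2. Of 11 cytokine genes that shape helper T cells, 5 were expressed: Tgfb1 (130 ± 5.12), Ebi3 (26.7 ± 3.80), Tnf (5.44 ± 0.254), Il1b (1.85, 3.61 and 6.75) and Il18 (2.38 ± 0.373). Il6 (0.712, 1.55 and 1.17 FPKM) missed the rule, and Il23a and Il12a, both outside the 6 leading members, were listed at 0 in replicates 1 and 2.

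Markers of other lineages differed from list to list, beside 43.9% of protein-coding genes expressed. Of 9 basophil and mast cell markers and 10 fibroblast and stromal markers none were expressed; their summed levels were 1.43 to 7.51 and 2.37 to 2.51 FPKM. Of 11 B cell markers only Ighm was expressed (5.25 ± 0.324), and of 10 T and NK cell markers 4 were, chiefly Il7r (79.7, 92.7 and 88.9), the IL-7 receptor; the granzyme gene Gzma averaged 3.28 ± 2.76, and Lck and Cd3e were 1.54 ± 0.163 and 1.43 ± 0.196. Eosinophil granule genes Prg2, Prg3 and Epx were at or near 0, and the 3 expressed members of that list were Ear2 (411, 195 and 149) and Ear1, close copies that macrophages also make, and the surface receptor Siglecf (4.05, 2.38 and 2.61). Of 8 platelet markers 4 were expressed, the chemokine Pf4 (73.3, 28.5 and 28.5 FPKM) above the rest, and of 7 stem cell and 5 endothelial markers 1 (Sox4, 2.20 ± 0.719) and 2 (Kdr and Pecam1) were.

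Red cell genes were uneven between libraries. The erythroid list summed to 3.21, 9.66 and 129 FPKM in replicates 1, 2 and 3, nearly all of it globin: Hba-a1 was 1.28, 3.87 and 45.9, and Hbb-bs 0.845, 2.96 and 41.5, each with a near-identical copy. Car1 was listed at 0 in all 3 libraries. The same library, replicate 3, was highest for Ly6c2 and for 9 of the 10 expressed mature neutrophil markers, S100a8 and S100a9 among them. It was highest for 39.8% of all expressed genes. Whether the red cell transcripts have a part in those differences was not tested.

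Most genes with wide spans between libraries belonged to none of the 30 lists. Across expressed genes, 261 (2.48%) spanned more than 1 log2 unit. Of these 261, 34 belonged to a list, beside 199 of all 10524 expressed genes. List members, chosen with earlier results known, thus made up more of the wide-span genes than of all expressed genes. Replicates 1, 2 and 3 held the highest value of 122 (46.7%), 30 (11.5%) and 109 (41.8%) of the 261, beside 32.3%, 27.9% and 39.8% of all expressed genes. The count was 64 without replicate 1, 223 without replicate 2 and 87 without replicate 3, over fewer libraries in each case. The 20 widest spans among genes averaging at least 5 FPKM, predicted genes left out, are a description of values chosen for their span. Predicted genes such as Gm24305 spanned more than some of the 20. Of the 20, 7 (Evi2b, Hbb-bs, Hbb-bt, Hba-a2, Rbp4, Oaz3 and Ear6) missed the expression rule. These 7 reached that average only through the libraries where they were high. Of the 20, those highest in replicate 1 included Apoe, Mrc1, C1qb, C1qc, Retnla, Ms4a4a, the retinol carrier Rbp4 (17.6, 3.05 and 0.671) and the amino acid transporter Slc36a2. Those highest in replicate 3 were 4 globin genes, S100a8, S100a9, Lcn2, Oaz3 and Tnfsf15.

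The widest span of these 20 genes was that of Evi2b, at 69.0, 5.42 and 0.471 FPKM. Evi2, named after its values were seen, overlaps it and was 8.02, 41.0 and 39.4; since no source used here says that strand or overlap was resolved in counting, the pair is uncertain.

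**Figure D4:**
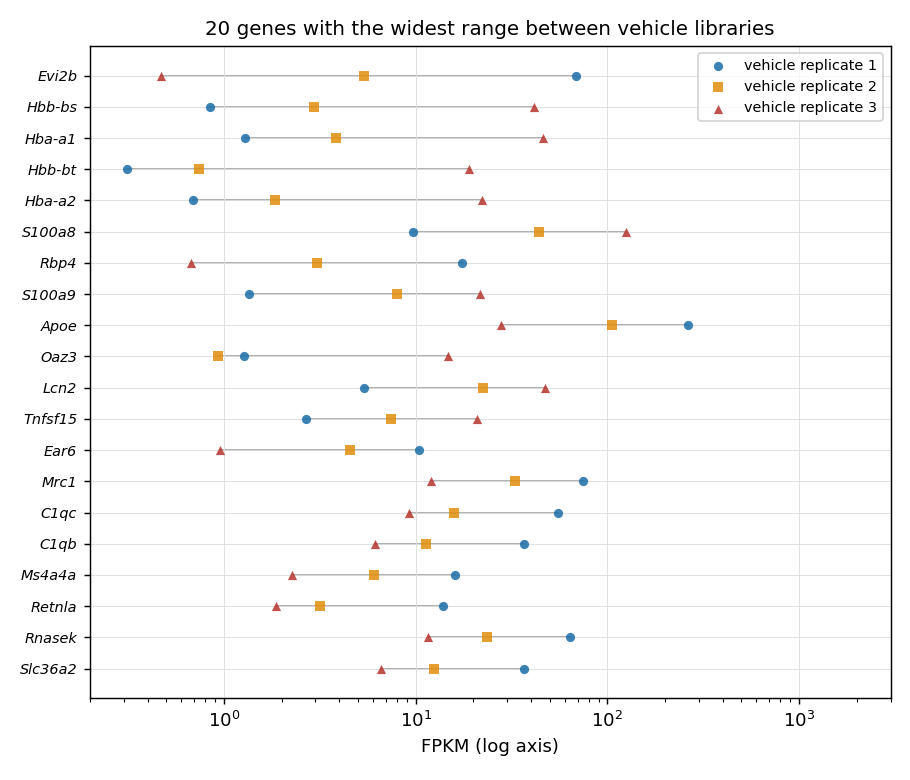
FPKM (log axis) in vehicle replicates 1, 2 and 3 of the 20 genes with the largest log2 range, ordered by range. Genes averaging at least 5 FPKM were ranked, and predicted genes were left out. Evi2b spans 0.471 to 69.0 FPKM, and 7 of the 20 genes are under 1 FPKM in at least 1 library.

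Replicate 4 kept the broad order of genes but not every member's place. Of the 199 expressed genes over all 30 lists, 39 fell inside the percentile range of replicates 1 to 3, the median distance from their mean was 3.43 percentile points, and 41 were over 10 points away; over all 10387 expressed genes in both tables these were 1671, 4.54 points and 2008. Far below their place in the others were Il4i1, an amino acid oxidase of mature dendritic cells (56.3 points lower), S100a4 (44.4), Ear1 (38.2) and Retnla (28.9). Far above were Il1b (25.3 points higher), the lectin receptor Clec12a (24.3) and the proliferation gene Top2a (22.1). Replicate and table cannot be told apart here.

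**Figure D5:**
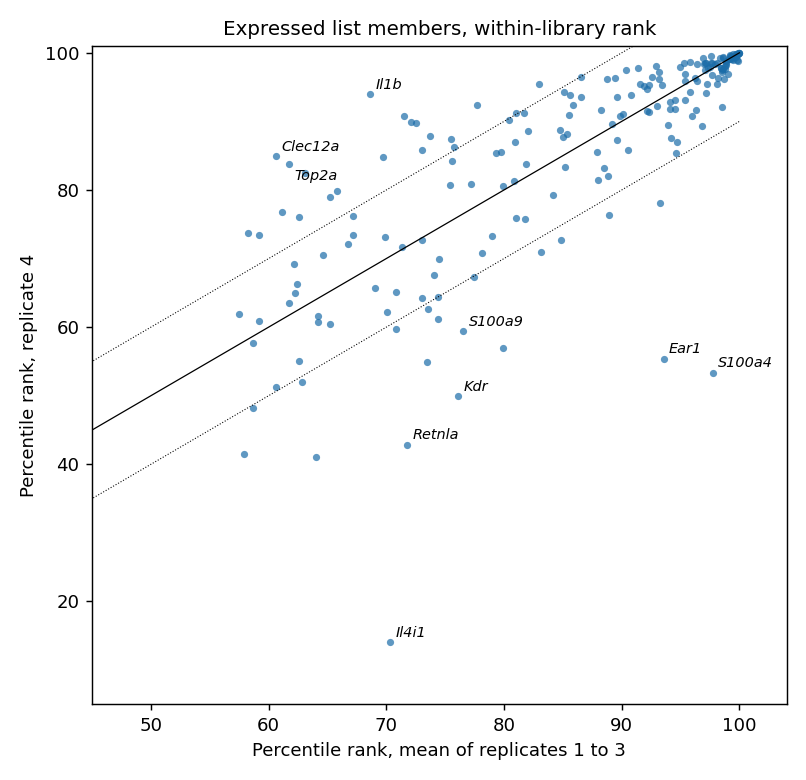
Percentile rank among genes listed in both tables, for expressed list members: the mean of replicates 1 to 3 (horizontal) against replicate 4 (vertical), with equality as a solid line and 10 points either side dotted. Most points lie near the line, and Il4i1, S100a4 and Ear1 lie far below it.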

How the data were processed

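Of the 8 libraries, the 4 vehicle ones were used. Per the submitters' processing notes, HISAT2, featureCounts, Subread and DESeq2 1.34.0 were used with the build mm10; their roles and settings are not given in the sources used here. The deposited values were taken as FPKM made by the authors: no header or label states the unit, and it was inferred from the values. Replicates 1 to 3 share a table of 55450 genes; replicate 4 has another of 24848, so it was used by within-library rank. The per-sample tables held the same values as the series tables.

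Means, SDs, list medians, ranks and log2(FPKM + 1) ranges (pseudocount 1) were computed with Python 3.11.15, pandas 2.3.3 and numpy 2.4.6. The design holds 1 group, so no test between groups was run; single libraries were examined with Dixon's outlier criterion. Names follow a rule: the 30 highest genes without mitochondrial, ribosomal protein and predicted genes, all receptors, the 6 highest members of each list and those at 0. The rule also names the 20 widest ranges at a mean of at least 5 FPKM, again without predicted genes. The members and the 30 lists were chosen with earlier results of these data known, and genes named outside the rule (Adgre1, Siglec1, Cd5l, Marco, Vsig4, Folr2, Xcr1, Clec9a, Il12b, Ciita, Csf3r, Cxcr2, Ltf, Camp, Elane, Ly96, Lbp, Il12a, Il23a, Il4i1, Lyz1 and Evi2 among them) were chosen after their values were seen. Alternatives were the expression minimum, the pseudocount, a TPM scale, quantile normalization, genes in both tables only, and leaving out each replicate. Promoter windows came from RefSeq. Scripts were tested on simulated data. Some list members and leading genes are not reported here by name.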

Additional observations from a re-analysis of the deposited data

Results flagged for a closer look

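Of 64 values examined for 1 vehicle library far from the other 3, by the gap to its nearest neighbour over the whole range, 5 passed Dixon's 95% critical value; chance gives about 1 in 20. Each is a percentile among genes listed in both tables. The monocyte list's median was 64.4 in replicate 4, against 72.1 to 73.4 in the others. The cell cycle list's median was 75.4 in replicate 4, against 58.0 to 60.2. The gene Nptn stood at 94.1 in replicate 4, against 97.1 to 97.2. Among values where replicate 4 did not stand apart, Apoe was 94.3 in replicate 3, against 98.8 to 99.6, and S100a8 was 83.0 in replicate 1, against 96.8 to 99.0. Apoe and S100a8, like all 20 widest-span genes among the 64 values, were examined because of their wide span over replicates 1 to 3. The chance rate above therefore does not apply to them. Nor does it apply to the 3 values of replicate 4, because that library came in a separately made table.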

How the results depend on the processing

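No paired analysis was possible because only 1 group, vehicle, entered and no groups were compared. The count of expressed genes stayed within 1.5 times 10524 under every alternative run (8980 to 13066). The count of genes spanning more than 1 log2 unit, 261, became 492 with a pseudocount of 0.1, 93 with one of 5 and 611 with no expression minimum, and was 64 to 223 when a replicate was left out. With only genes listed in both tables, the ribosomal protein share was 5.99% and the shares of the 10, 50 and 100 highest genes 19.8%, 34.1% and 40.2%. On a TPM scale the list medians were 120.5 for macrophage, 2.64 for pan-dendritic, 87.8 for mature dendritic, 17.0 for monocyte, 1.70 for secondary granule, 20.4 for mature neutrophil, 247 for MHC class II and 69.96 for receptor genes, since that scale multiplies every gene of a library. Over members past 1 FPKM alone they were 7.19 for pan-dendritic, 14.5 for monocyte, 42.5 for secondary granule, 14.6 for mature neutrophil, 195 for MHC class II and 31.5 for receptor genes, over fewer genes in each case. The median rank distance of replicate 4 was 3.43 to 4.82 points over the settings run. The number of libraries limits every SD, and the unit is inferred.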

Other observations

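Cell cycle, osteoclast and immediate early genes were examined too, beside 43.9% of protein-coding genes expressed. Of 15 cell cycle genes 8 were expressed, led by the replication clamp Pcna (39.7 ± 3.62 FPKM), Mcm3 (5.32 ± 1.18) and Mki67 (4.82 ± 1.45). Of 10 osteoclast markers 7 were expressed, led by the proton pump subunit Atp6v0d2 (109, 82.9 and 61.3 FPKM), the phosphatase Acp5 (57.3, 37.0 and 21.9) and the fusion gene Dcstamp (16.5, 20.48 and 21.6). Immediate early genes were expressed in 12 of 15 cases: Zfp36 (59.5 ± 2.79), Dusp1 (33.6, 53.4 and 71.3), Junb (49.7 ± 2.66) and Fos (46.7 ± 5.56, rank 169 in replicate 4) led.

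Some abundant genes held very different places in the separately made table of replicate 4. Lars2, a mitochondrial leucyl-tRNA synthetase, ranked 18, 19 and 18 in replicates 1 to 3 and 447 in replicate 4, and Rnasek 524, 1649 and 3633 against 12520.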
